A study of Mus musculus with 11 samples.

Results

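Genes that detect double-stranded RNA (dsRNA) or act on it were followed in primary lung fibroblasts of mice lacking cGAS, the cytosolic DNA sensor. The 8 genes were chosen by name for their known function and found by symbol: Rigi (listed under the older symbol Ddx58 in the annotation used), Ifih1, Dhx58, Mavs, Tlr3, Zbp1, Eif2ak2 and Adar. They are 8 of the 56980 genes counted in each library, and all 8 passed the filter on low counts. The samples were 3 cGAS KO males, 3 cGAS KO females, 3 WT males and 2 WT females, with each sample the cells of a separate mouse. The labels name no treatment, and all cells were kept at 5% O2, 5% CO2 and 37 °C with 15% serum in their medium. Total RNA was freed of ribosomal RNA. The labels state neither the KO allele nor the strain or age of the mice. The extraction text of the labels speaks of tissue, although the samples are labelled as cultured cells.

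RIG-I (Rigi) and MDA5 (Ifih1) are cytosolic helicases that bind viral or misplaced self RNA and switch on the mitochondrial adaptor MAVS, which leads to type I interferon. LGP2 (Dhx58) is the third RIG-I-like receptor and lacks the signalling domains of the others, TLR3 senses dsRNA in endosomes, ZBP1 binds Z-form nucleic acid and can trigger cell death, and PKR (Eif2ak2) stops translation by phosphorylating eIF2 alpha. ADAR edits adenosine to inosine in dsRNA, which keeps self RNA from activating MDA5 and PKR. Several of these genes are themselves induced by interferon, through a shared promoter element.

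Because several of the genes share this route of induction, promoters are shown before the levels. RefSeq windows on GRCm38.p6, from 250 bases before the annotated start to 50 bases from it, were found for 6 of the 8 genes, with no entry for Dhx58 or Zbp1, and gave 8 windows because Adar has 3. The core of the interferon-stimulated element, GAAANNGAA, was searched on both strands. It was found in 4 of the 6 genes, Rigi, Ifih1, Eif2ak2 and Adar, and for Adar in only the most downstream of its 3 windows. Of all RefSeq windows of this length, 2812 of 32851 (8.56%) hold it, a share that counts windows rather than genes. In the windows below, printed 5′ to 3′ in the direction of the gene, capitals mark these matches. They lie on the minus strand at chr4:40239776-40240075 (Rigi), chr2:62646206-62646505 (Ifih1) and chr17:78882523-78882822 (Eif2ak2), and on the plus strand at chr3:89730468-89730767 (Adar, the most downstream of its windows) and chr2:131233813-131234112 (Mavs, shown for contrast).
Rigi: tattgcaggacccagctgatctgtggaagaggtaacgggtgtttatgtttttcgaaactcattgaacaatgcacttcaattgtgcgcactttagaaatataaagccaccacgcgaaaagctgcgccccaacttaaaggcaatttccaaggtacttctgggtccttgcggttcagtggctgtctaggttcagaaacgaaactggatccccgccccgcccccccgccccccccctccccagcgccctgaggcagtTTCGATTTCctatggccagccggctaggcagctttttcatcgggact
Ifih1: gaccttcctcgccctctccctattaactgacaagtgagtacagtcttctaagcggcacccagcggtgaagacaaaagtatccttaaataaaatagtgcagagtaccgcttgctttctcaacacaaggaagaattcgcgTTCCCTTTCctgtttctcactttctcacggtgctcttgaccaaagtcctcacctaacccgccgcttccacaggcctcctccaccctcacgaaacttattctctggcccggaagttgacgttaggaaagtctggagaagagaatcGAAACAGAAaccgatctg
Eif2ak2: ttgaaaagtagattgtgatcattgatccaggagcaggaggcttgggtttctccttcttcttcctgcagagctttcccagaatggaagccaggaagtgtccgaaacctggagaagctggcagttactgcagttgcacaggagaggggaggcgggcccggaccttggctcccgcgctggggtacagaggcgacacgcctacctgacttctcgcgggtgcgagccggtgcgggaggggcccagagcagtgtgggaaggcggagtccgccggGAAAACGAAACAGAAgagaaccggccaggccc
Adar: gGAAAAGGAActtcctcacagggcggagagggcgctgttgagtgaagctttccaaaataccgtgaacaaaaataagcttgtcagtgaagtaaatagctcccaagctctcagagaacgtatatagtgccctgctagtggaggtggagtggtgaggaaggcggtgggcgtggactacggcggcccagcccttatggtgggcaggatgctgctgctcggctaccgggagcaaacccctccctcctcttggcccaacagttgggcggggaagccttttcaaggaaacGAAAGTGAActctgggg
Mavs: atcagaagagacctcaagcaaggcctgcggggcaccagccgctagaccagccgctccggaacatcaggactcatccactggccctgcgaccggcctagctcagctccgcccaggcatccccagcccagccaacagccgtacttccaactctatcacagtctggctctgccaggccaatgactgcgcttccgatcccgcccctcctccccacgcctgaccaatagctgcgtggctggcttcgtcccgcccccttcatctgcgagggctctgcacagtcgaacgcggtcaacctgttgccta
Counting the start base as 1, a match begins at base 4 in Rigi (on the opposite strand), base 33 in Ifih1, base 34 in Adar and base 19 in Eif2ak2. In Eif2ak2 a second match overlaps it from base 25. Further from the start, Ifih1 has another match at position −112, on the opposite strand, and Adar has another at position −249, on the strand of the gene. Mavs, Tlr3 and the other 2 Adar windows hold no match, which says only that these letters are not in those windows.

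Total counts ran from 27261958 to 48039328 per library. Cgas checked the labels: it had 52 to 111 counts in KO libraries and 222 to 403 counts in WT libraries, with a log2 fold change of −1.99 (SE 0.16, edgeR adjusted p = 0.00102). WT female 2 stood apart from the others, with a median correlation of 0.960 with the other libraries against 0.978 to 0.986 for the rest. Fibroblast markers summed to 25702 to 32936 CPM (counts scaled to TMM-adjusted library size) in KO libraries and 27124 to 36450 CPM in WT libraries, led by Col1a1 and Col1a2, with Lum and Tcf21 low at 3.37 and 4.73 CPM on average. Leukocyte and macrophage markers were also high: 14 of 16 passed the filter, their sum was 7801 to 13125 CPM in KO libraries (median 8347) and 5469 to 8132 CPM in WT libraries (median 5865), and 13 of the 14 had a positive log2 fold change. Lyz2 alone averaged 3710 CPM, while Cd3e and Cd79a, markers of T and B cells, were under the filter. Epithelial markers summed to at most 35.6 CPM in KO and 53.0 CPM in WT libraries, and endothelial markers to at most 103 CPM in KO and 86.9 CPM in WT libraries. Of the epithelial markers tested, 0 of 7 had a positive log2 fold change, and of the endothelial ones 3 of 7, where 47.5% of all entries did. The epithelial sum was 10.2 to 13.2 CPM in KO males and 21.9 to 53.0 CPM in WT males. In bulk RNA, fewer cells of a type and less RNA per cell cannot be told apart.

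All 8 genes were expressed in every library, from 58 counts at the lowest (Zbp1 in WT male 1) to 1831 at the highest (Eif2ak2). Per kilobase of exon, Mavs was the most abundant at 9.89 ± 0.99 CPM per kb (SD, n = 11), followed by Eif2ak2 at 6.52 ± 0.82 and Rigi at 4.77 ± 0.48. Adar came next at 4.04 ± 0.33 CPM per kb, then Ifih1 at 2.38 ± 0.43, Dhx58 at 2.32 ± 0.67 and Tlr3 at 1.99 ± 0.51. Zbp1 was the least abundant at 0.696 ± 0.228 CPM per kb. Of the neighbours in this order, the ranges over libraries were separate for Mavs and Eif2ak2 and for Adar and Ifih1, and they overlapped for the rest. Ifih1 lay above Dhx58 in 6 of the 11 libraries, so the order of that pair is not settled.

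**Figure D1:**
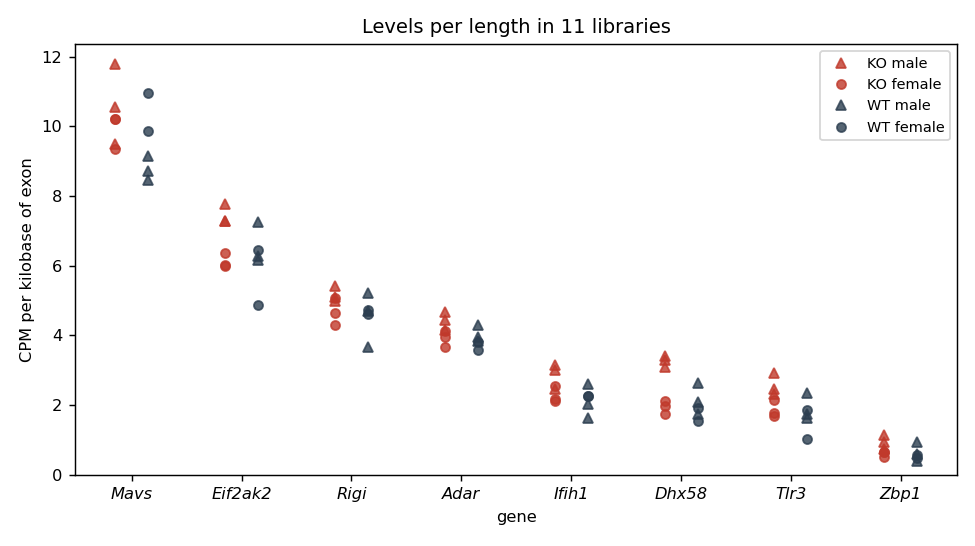
Level of each gene per kilobase of annotated exon in each of the 11 libraries (CPM per kb), with KO libraries left of WT libraries, triangles for males and circles for females. Mavs lies above Eif2ak2 in every library and Zbp1 is the lowest of the 8.

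Over both sexes, no RNA sensor gene passed the test between KO and WT, and the differences were small. Of the 8 genes, 0 were called by edgeR at an adjusted p under 0.05, where 0.00448% of all entries tested were called (1 of 22298, Cgas). At an unadjusted p under 0.05 there were 2, Dhx58 and Tlr3, both higher in KO, beside a background of 17.2%. DESeq2 called 0 of the 8 (background 3.25%) and limma-voom with sample weights called 1 (Dhx58; background 14.6%). Every log2 fold change was positive, 8 of 8 against 47.5% of all entries, with a median of 0.21 against −0.02 over all entries tested, and all 8 stayed positive without each library in turn. Without WT female 1, edgeR called Dhx58 (log2 fold change 0.51, adjusted p = 0.0423) and Tlr3 (0.57, adjusted p = 0.0465), 2 of 8 where 7.33% of all entries were called. That fit keeps WT female 2, the library that stood apart, as the only WT female. With WT female 2 left out instead, the log2 fold change was 0.39 for Dhx58 and 0.27 for Tlr3. KO and WT libraries overlapped for each of the 8, so 0 of 8 lay wholly higher in KO, where 0.789% of all entries did.

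The 3 RIG-I-like receptors differed in how their libraries were spread. Dhx58 had 11.2, 10.8 and 10.1 CPM in KO males and 5.74, 6.45 and 6.92 CPM in KO females, against 6.81, 8.65 and 5.71 CPM in WT males and 6.28 and 5.05 CPM in WT females. The KO males stood above all other libraries, and the KO females lay within the WT range. Its log2 fold change over both sexes was 0.41 (SE 0.13, edgeR adjusted p = 0.187). Ifih1 had 25.7, 24.5 and 20.1 CPM in KO males and 17.4, 20.7 and 17.7 CPM in KO females, against 13.3, 21.2 and 16.6 CPM in WT males and 18.4 and 18.5 CPM in WT females. KO male 1 and KO male 2 were above the WT range, with the other 4 KO libraries inside it. The log2 fold change of Ifih1 was 0.26 (SE 0.13, edgeR adjusted p = 0.337), with a value of 0.15 when WT male 1 was left out. Rigi had 38.2, 35.1 and 36.1 CPM in KO males and 30.4, 35.8 and 32.7 CPM in KO females, against 25.9, 33.1 and 36.7 CPM in WT males and 32.6 and 33.4 CPM in WT females. The groups overlapped, with KO male 1 at the top and WT male 1 at the bottom, and the log2 fold change was 0.11 (SE 0.09, edgeR adjusted p = 0.578). Leaving out WT male 1 gave 0.014.

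Mavs, the adaptor that both RIG-I and MDA5 use, had 39.5, 35.3 and 31.8 CPM in KO males and 31.3, 34.2 and 34.2 CPM in KO females. It had 28.3, 30.6 and 29.2 CPM in WT males and 33.0 and 36.7 CPM in WT females. KO males lay above WT males, whereas WT female 2 exceeded every KO female. Over both sexes its log2 fold change was 0.12 (SE 0.09, edgeR adjusted p = 0.491), and without KO male 1 it was 0.046.

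Tlr3, the endosomal sensor, had 15.2, 12.9 and 12.1 CPM in KO males and 8.83, 11.2 and 9.21 CPM in KO females, against 9.12, 12.2 and 8.53 CPM in WT males and 9.67 and 5.33 CPM in WT females. WT female 2 was the lowest library by a wide margin. The log2 fold change was 0.41 (SE 0.16, edgeR adjusted p = 0.23), and without WT female 2 it was 0.27. Zbp1 had 4.08, 2.58 and 3.31 CPM in KO males and 1.81, 2.34 and 2.28 CPM in KO females, against 1.41, 3.32 and 2.14 CPM in WT males and 2.00 and 1.75 CPM in WT females. It rests on the fewest reads, 58 to 185 per library, and WT male 2 lay above all KO libraries but KO male 1. Its log2 fold change of 0.39 had the widest error of the 8 (SE 0.21, edgeR adjusted p = 0.364), limma-voom gave −0.0045, and without WT male 1 the edgeR value was 0.22.

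The effector kinase and the editing enzyme had small differences. Eif2ak2 had 39.7, 37.2 and 37.2 CPM in KO males and 30.7, 32.6 and 30.8 CPM in KO females, against 32.1, 37.1 and 31.5 CPM in WT males and 33.0 and 24.9 CPM in WT females. WT female 2 was again the lowest, and the log2 fold change was 0.15 (SE 0.08, edgeR adjusted p = 0.359). It was 0.076 without WT female 2 and 0.23 without WT female 1. Adar had 38.0, 36.0 and 33.7 CPM in KO males and 29.7, 33.6 and 32.1 CPM in KO females, against 31.1, 34.8 and 32.1 CPM in WT males and 30.9 and 29.1 CPM in WT females. The KO females sat inside the WT range for Adar, and its log2 fold change was 0.11 (SE 0.06, edgeR adjusted p = 0.384), against 0.073 without KO male 1. Because the strand setting of the counting is not given, reads of antisense neighbours cannot be separated: in the vM21 annotation Adar shares 1365 exon bases with Chrnb2, Tlr3 381 with Gm45542, Eif2ak2 174 with Gm26637 and 47 with n-R5s29, and Dhx58 141 with Dhx58os.

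**Figure D2:**
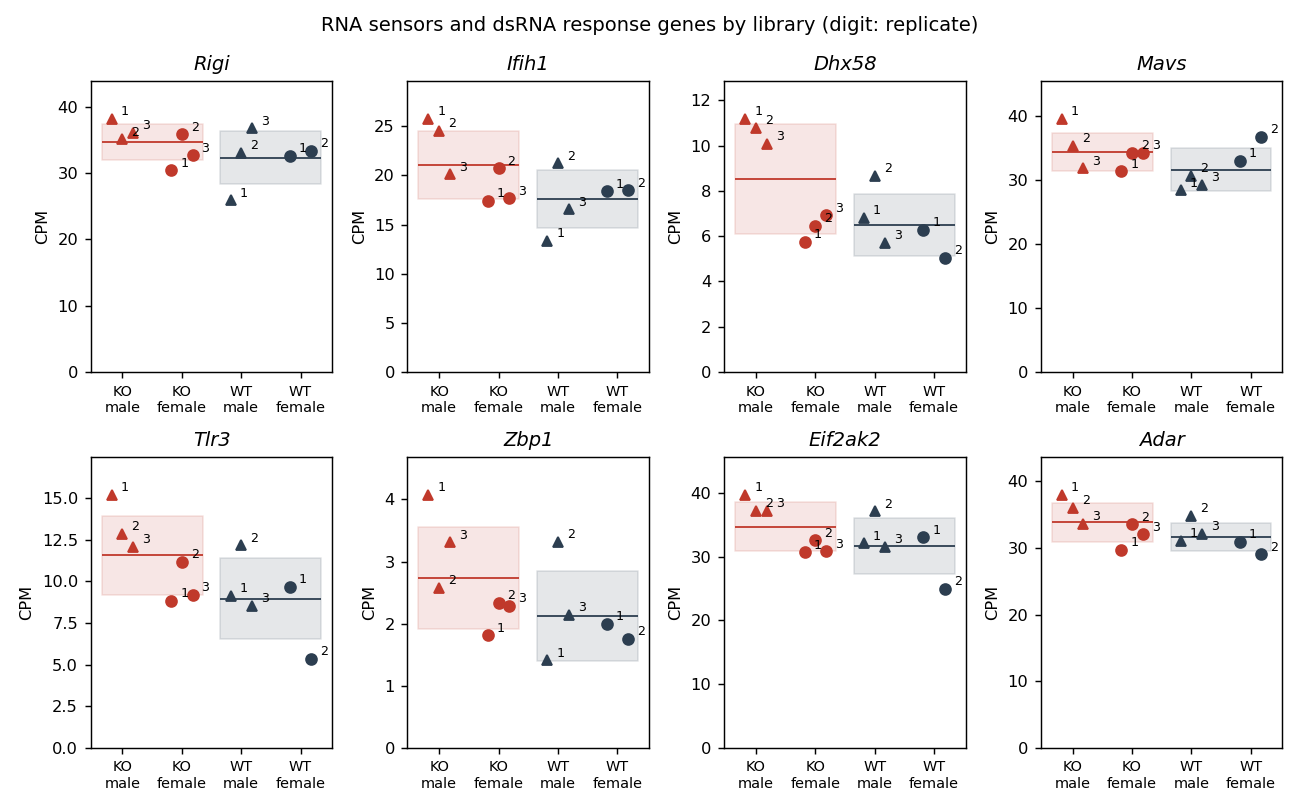
CPM of each gene in each library, with KO males, KO females, WT males and WT females from left to right and digits giving the replicate. Lines are means and bands are 1 SD over the 6 KO or 5 WT libraries. For Dhx58 the 3 KO males, at 10.1 to 11.2 CPM, lie above all others, and KO and WT overlap in every panel.

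The values were larger in males than in females for all 8 genes, although no genotype-by-sex term was called. In males, 0 of 8 genes were called by edgeR (2.00% of all entries were), 3 had an unadjusted p under 0.05 (background 22.2%), and 8 of 8 were positive (background 47.9%). DESeq2 called 1 in males (Dhx58, log2 fold change 0.59, adjusted p = 0.0167; background 10.3%) and limma-voom called 2 (Dhx58 and Mavs; background 20.0%). KO males lay wholly above WT males for Dhx58, Mavs and Eif2ak2, which is 3 of 8 where 17.7% of all entries did so. For Eif2ak2 this rests on 37.19 CPM in KO male 2 against 37.10 CPM in WT male 2. With plain library sizes these were 37.16 and 38.66 CPM, so the 2 groups overlapped. The male log2 fold change was 0.60 for Dhx58 (SE 0.16, edgeR adjusted p = 0.069), 0.46 for Ifih1 (SE 0.16, edgeR adjusted p = 0.134) and 0.27 for Mavs (SE 0.10, edgeR adjusted p = 0.136; 0.16 without KO male 1). For the other 5 genes it ran from 0.14 for Adar to 0.53 for Zbp1. Leaving out 1 library brought Dhx58 past the threshold without WT female 1, WT female 2 or WT male 2 (edgeR adjusted p = 0.0416, 0.0471 and 0.0336), and Ifih1 without WT male 2 (0.65, edgeR adjusted p = 0.0451). In males, 8.56% of all entries were called without WT female 1, 7.41% without WT female 2 and 4.45% without WT male 2.

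In females the values stayed near 0 for most of the genes. None of the 8 was called by edgeR (0 genes, background 0.00436%), by DESeq2 (background 0.0157%) or by limma-voom (background 0%), and 0 had an unadjusted p under 0.05 (background 6.66%). Of the 8, 7 were positive (background 51.5%), and Mavs was −0.07. KO females lay wholly above WT females for 0 of 8, where 9.26% of all entries did. Rigi was at 0.00 and Ifih1 at 0.01, and the highest was Tlr3 at 0.38 (SE 0.25, edgeR adjusted p = 0.692). Tlr3 in females depended on which WT female was kept, with 0.0095 without WT female 2 and 0.89 without WT female 1 (edgeR adjusted p = 0.0369). Either omission leaves 1 WT female, which is assumed to vary like the other groups. Without WT female 1 the remaining one is WT female 2, the library that stood apart, and 15.4% of all entries were then called in females.

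The genotype-by-sex term, the female minus the male log2 fold change, tests that difference directly. It was negative for all 8 genes, from −0.45 for Ifih1 to −0.05 for Tlr3, where 51.3% of all entries were positive. No gene was called by edgeR (0 of 8, background 0%), by DESeq2 (background 1.11%) or by limma-voom (background 0%), and 1 had an unadjusted p under 0.05 (Mavs, −0.34, SE 0.15, edgeR adjusted p = 0.358; background 13.1%). Leaving out 1 library turned the sign of this term for Adar (without KO male 1 or WT female 1), for Eif2ak2 (0.16 without WT female 1) and for Tlr3 (0.46 without WT female 1, and 0.02 to 0.08 without KO male 1, KO female 1, WT male 1 or WT male 3). The male and female libraries also carry differently styled names, so sex and any difference in preparation cannot be told apart.

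**Figure D3:**
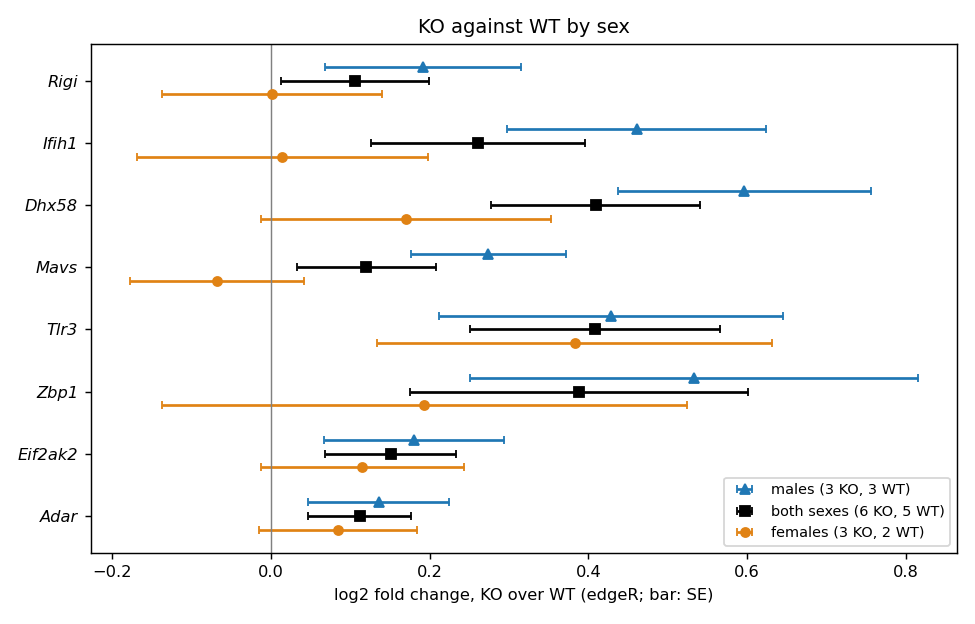
Log2 fold change of KO over WT for each gene in males, both sexes and females (edgeR, bars are SE). Male values lie to the right of female values for all 8 genes, by 0.05 for Tlr3 up to 0.45 for Ifih1.

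Between the sexes, over both genotypes, Dhx58 was the only one of the 8 genes to pass the test. It was higher in males, at 8.87 ± 2.22 CPM (SD, n = 6), than in females, at 6.09 ± 0.72 CPM (SD, n = 5), with a log2 fold change of males over females of 0.56 (SE 0.13, edgeR adjusted p = 0.0452). That is 1 of 8, where 4.29% of all entries were called. In addition, 5 of 8 had an unadjusted p under 0.05 (background 27.1%) and 7 of 8 were positive (background 49.5%). The groups overlapped, with WT male 3 and WT male 1 inside the female range. The call is marginal: it was lost without each of 9 of the 11 libraries in turn (edgeR adjusted p 0.0504 to 0.112; it held without WT female 1 and without WT male 3), with a leukocyte score in the model (adjusted p = 0.051) and with replicate number as a block (adjusted p = 0.0734). Of all 22298 entries, edgeR called 473 with the leukocyte score and 206 with the block, against 956 with neither. Eif2ak2 had a log2 difference of 0.25 (SE 0.08, edgeR adjusted p = 0.0882), and DESeq2 called it (adjusted p = 0.0458) with Dhx58, 2 of 8 beside a background of 12.6%. Without WT female 1, edgeR called Eif2ak2 (0.33, adjusted p = 0.0196) and Tlr3 (0.60, adjusted p = 0.0271) as well, 3 of 8 where 14.6% of all entries were called. That fit keeps WT female 2 as the only WT female. With WT female 2 left out instead, the log2 difference was 0.19 for Eif2ak2 and 0.32 for Tlr3. On all 11 libraries limma-voom called Dhx58, Eif2ak2, Tlr3 and Adar, 4 of 8 beside a background of 26.8%. Tlr3 (0.44), Zbp1 (0.49) and Adar (0.15) were also positive with edgeR adjusted p of 0.11, 0.17 and 0.158, while Ifih1 (0.14), Rigi (0.06) and Mavs (−0.06) had unadjusted p above 0.05.

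The same library was the highest for every gene. KO male 1 ranked first of the 11 for 8 of 8 genes, and KO male 2 was among the top 3 for 6. The lowest library was WT female 2 for 4 genes and WT male 1 for the other 4, and KO female 1 was among the lowest 3 for 7 of 8. KO male 1 also had the highest leukocyte score, the mean log2 CPM of the 14 markers, at 8.15, followed by KO male 2 at 8.08. The score was 7.45 to 8.15 in the KO libraries, against 6.88 to 7.59 in the WT libraries, where WT female 2 was the lowest. Without KO male 1 the 8 values over both sexes were still all positive, with a median of 0.15 in place of 0.21, and without WT male 1 the median was 0.13. Once that score was a term of the model, the values over both sexes ran from −0.03 to 0.13 with a median of 0.01, and 6 of 8 were positive. Dhx58 was then 0.13 and Tlr3 0.01, each with an SE of 0.15 and an edgeR adjusted p of 1.0. With the score, edgeR called 0 of all 22298 entries over both sexes, and Cgas, at −1.98, was not called either. An unadjusted p under 0.05 was then reached by 284 of all entries, against 3827 without the score. The part of leukocyte content in these differences was not tested.

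**Figure D4:**
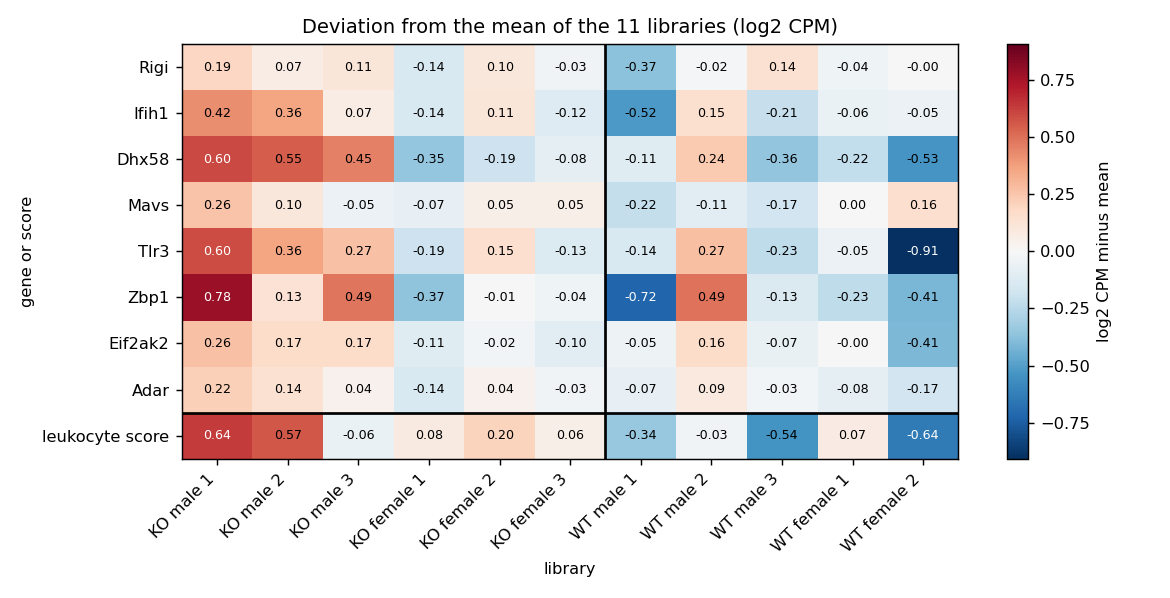
Deviation of each gene (log2 CPM) and of the leukocyte score from its mean over the 11 libraries, KO libraries left of WT libraries. KO male 1 is the highest library for all 8 genes and for the score, and WT female 2 is the lowest for Tlr3, at −0.91, and for the score, at −0.64.

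Across the 11 libraries the 8 genes were positively correlated in all 28 pairs, but to unlike degrees. The closest pair was Eif2ak2 with Tlr3 (Pearson r of log2 CPM 0.97) and the least alike was Mavs with Eif2ak2 (0.07). Pairs that included Mavs or Rigi ran from 0.07 to 0.76. Those with neither ran from 0.59 (Ifih1 with Eif2ak2) to 0.97. These are descriptions with no test, over libraries that differ in genotype, sex and leukocyte score. Among 12040 genes searched, the 3 nearest to Tlr3 included Tlr4 (0.98) and Ppp1r21 (0.98), and the nearest to Eif2ak2 was Vps45 (0.98). The 3 nearest to Zbp1 included Copg2 (0.90) and Tbc1d2b (0.89), and for Adar the nearest was Parp12 (0.97), followed by Sp100 (0.96). The nearest gene was Arpc3 for Dhx58 (0.99), Lrrc61 for Ifih1 (0.97), Tmem202 for Mavs (0.97) and AW549877 for Rigi (0.94).

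Around these genes, 74 others of the dsRNA response were listed in 10 groups, and 70 passed the filter. Over both sexes, edgeR called 0 of the 70, with 19 higher and 2 lower at an unadjusted p under 0.05 (backgrounds 10.1% and 7.09%), 49 positive and a median of 0.11. In males 1 of the 70 was called (background 2.00%), Unc93b1, which carries nucleic acid sensing Toll-like receptors to endosomes (log2 fold change 1.04, SE 0.17, edgeR adjusted p = 0.0475). This call was lost without each of 7 of the 11 libraries in turn (edgeR adjusted p 0.0585 to 0.212; it held without KO male 3, WT female 1, WT female 2 or WT male 2). It was also lost with replicate number as a block (adjusted p = 0.131), with the leukocyte score in the model (0.61, adjusted p = 0.616) and with the male samples alone (1.04, adjusted p = 0.0759). Each of these settings called 0 of all entries in males. The 7 fits without 1 library that lost the call gave 0 to 17 calls over all entries. In those 7 fits the log2 fold change of Unc93b1 was 0.88 to 1.04.

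The endosomal Toll-like receptors and their partners had the highest median of the 10 groups, 0.64, with 7 of 7 positive and 5 at an unadjusted p under 0.05. Over both sexes edgeR called 0 of the 7. For this and the other groups, the background over all entries was 47.5% positive and 17.2% at an unadjusted p under 0.05. Unc93b1 averaged 229.9 ± 40.5 CPM in KO libraries (SD, n = 6) and 148.3 ± 41.9 CPM in WT libraries (SD, n = 5), a log2 fold change of 0.64 (SE 0.18, edgeR adjusted p = 0.179). Tlr8, an endosomal Toll-like receptor, averaged 54.7 ± 10.5 CPM in KO and 33.7 ± 10.2 CPM in WT libraries, at 0.69 (SE 0.20, edgeR adjusted p = 0.179). These genes are expressed in macrophages, and the leukocyte and macrophage markers had a median sum of 8347 CPM in KO and 5865 CPM in WT libraries, whose part in these values was not tested.

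Among the OAS genes, whose active enzymes make the 2′-5′ oligoadenylate signal on binding dsRNA, 7 of 8 were positive with a median of 0.22. Of these 8, edgeR called 0, with 0 at an unadjusted p under 0.05. Oas1c averaged 2.24 ± 0.43 CPM in KO and 1.76 ± 0.35 CPM in WT libraries, with a log2 fold change of 0.35 (SE 0.16, edgeR adjusted p = 0.306). Oasl1, a relative without the synthase activity, averaged 0.705 ± 0.269 CPM in KO and 1.14 ± 0.61 CPM in WT libraries, at −0.65 (SE 0.38, edgeR adjusted p = 0.389). Its log2 fold change was −1.40 in males (SE 0.35, edgeR adjusted p = 0.0607) and 0.42 in females (SE 0.42, edgeR adjusted p = 0.733), and the genotype-by-sex term was 1.81 (SE 0.55, edgeR adjusted p = 0.294). Reads of the closely related Oas1 and Ifit genes may be shared among copies, so single values there are uncertain.

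Interferon signalling genes were positive in 8 of 8 tested, with a median of 0.27 and 5 at an unadjusted p under 0.05. Tyk2, a kinase of the interferon receptor, averaged 49.9 ± 6.68 CPM in KO and 39.0 ± 3.60 CPM in WT libraries (log2 fold change 0.36, SE 0.10, edgeR adjusted p = 0.179). The interferon genes Ifnb1 and Ifna4 had 0 counts in all 11 libraries, which allows up to 0.061 to 0.112 CPM per library. By contrast, the IFIT RNA-binding proteins, typical interferon targets, had 1 of 4 positive and a median of −0.09, with Ifit1 at −0.16 (SE 0.34) and Ifit3b at −0.22 (SE 0.46), edgeR adjusted p = 0.837 each.

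Signalling below MAVS and TLR3 had 9 of 12 positive, a median of 0.12 and 6 at an unadjusted p under 0.05. Ikbke, a kinase that activates IRF3, averaged 47.3 ± 10.1 CPM in KO and 35.9 ± 5.52 CPM in WT libraries (log2 fold change 0.40, SE 0.15, edgeR adjusted p = 0.215), and Tbkbp1, which binds the kinase TBK1, was at 0.31 (SE 0.10, edgeR adjusted p = 0.185). The ZBP1 cell death partners were positive in 5 of 5 with a median of 0.23 and 2 at an unadjusted p under 0.05, Ripk1 at 0.29 (SE 0.10, edgeR adjusted p = 0.194) and Casp8 at 0.23 (SE 0.09, edgeR adjusted p = 0.229).

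The remaining groups had medians between −0.04 and 0.07. RIG-I-like receptor cofactors had 3 of 8 positive and 1 at an unadjusted p under 0.05, Rnf135, a ubiquitin ligase of RIG-I (0.28, SE 0.09, edgeR adjusted p = 0.198), with Nlrx1 at 0.23. The dsRNA editing and binding proteins had 3 of 7 positive, and both of the list genes lower at an unadjusted p under 0.05 were here: Adarb1, the second editing enzyme, at −0.33 (SE 0.10, edgeR adjusted p = 0.184) and Ilf2 at −0.22 (SE 0.10, edgeR adjusted p = 0.289). Adarb2 had at most 1 count in any library. The eIF2 alpha kinases and phosphatase subunits had 3 of 6 positive, with Ppp1r15a at −0.15 and Eif2ak1 at 0.11, and RNA clearance had 3 of 5 positive, with Skiv2l at 0.29 and Samhd1 at 0.11. Neither of these groups held a gene at an unadjusted p under 0.05.

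**Figure D5:**
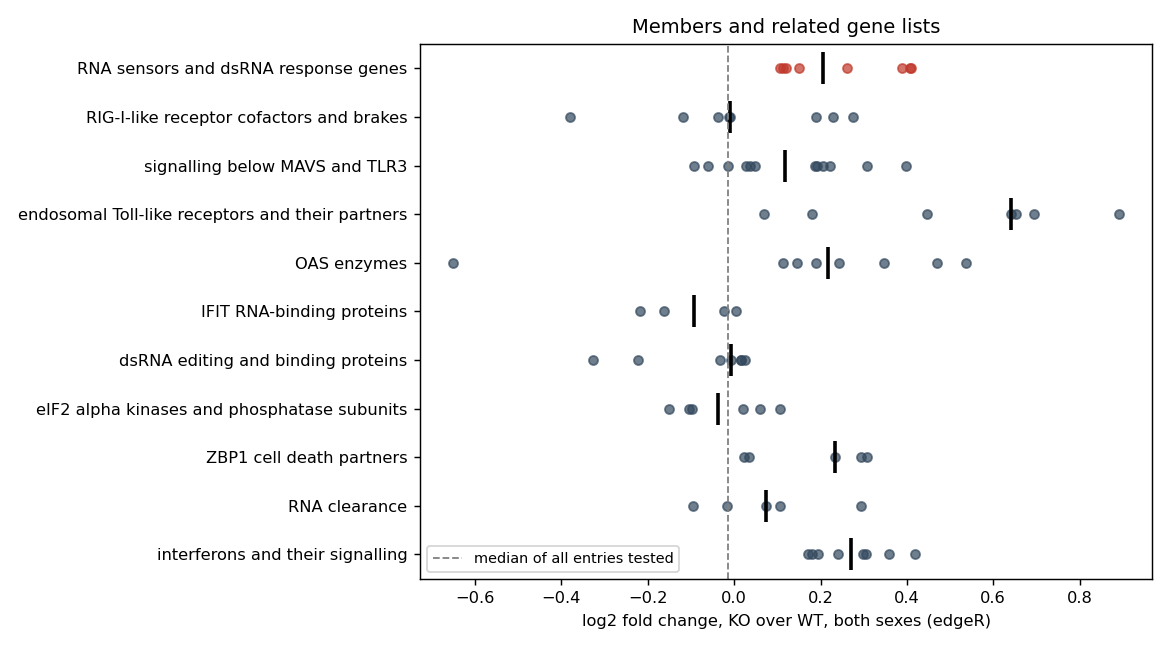
Log2 fold change of KO over WT over both sexes for the 8 RNA sensor genes (top, red) and the genes of the 10 related lists that passed the filter. Each point is a gene, black bars are list medians and the dashed line is the median of all entries tested, −0.02. The endosomal Toll-like receptor list has the highest median, 0.64, and the IFIT list the lowest, −0.09.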

How the data were processed

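RNA was sequenced from cultured primary lung fibroblasts of 11 mice. The authors deposited raw whole-number counts, 1 table per sample with 58223 entries (56980 Ensembl genes and 1243 repeat subfamilies). The submitters' processing notes list Trim Galore, STAR and the GRCm39 build without versions. How reads were counted, with which strand setting and annotation, is not given in the sources used here. Symbols, exon lengths and overlaps came from GENCODE vM21 (GRCm38), matched by gene ID.

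The 8 genes, the related lists and the markers were chosen with earlier results of these data known, and up to 2 genes are named per list, those with the smallest p over both sexes. Some genes that this rule would name are not reported here. Tests used edgeR 4.0.16 in R 4.3.3 (quasi-likelihood F-test, TMM scaling, filterByExpr with a minimum count of 10), with Benjamini-Hochberg adjustment over all entries tested and a threshold of 0.05. A model of sex and genotype (22298 entries, 8 residual degrees of freedom) gave the contrasts over both sexes and of males against females. A model of 4 group means (22960 entries, 7 residual degrees of freedom) gave males, females and genotype by sex. Fold changes are KO over WT unless stated, SE belongs to the log2 fold change and SD to CPM. Scripts were tested on simulated data. Alternatives were RLE size factors, DESeq2 1.42.0, limma 3.58.1 voom, no filter, genes alone, a leukocyte covariate, no sex term, each sex alone, plain library sizes for CPM, a replicate block and leaving out each library.

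Depth was 27261958 to 48039328 counts per library. A count of 0 allows up to 3 counts, or 0.061 to 0.112 CPM, which covers counting error only. No libraries were duplicates: within groups, the chi-square of pairs divided by its degrees of freedom was 12.0 to 144.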

Additional observations from a re-analysis of the deposited data

How the results depend on the processing

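Over both sexes the count of RNA sensor genes called was 0 with edgeR and became 1 with limma-voom; leaving out each library gave 0 to 2, with 2 (Dhx58 and Tlr3) without WT female 1. In males the count became 1 with DESeq2 and 2 with limma-voom, and 0 to 2 on leaving out each library, with 1 without WT female 1, 1 without WT female 2 and 2 without WT male 2. In females it was 0 to 1 (1 without WT female 1), and for genotype by sex it stayed 0. Between males and females the count of 1 became 2 with DESeq2, 4 with limma-voom, 0 with the replicate block and 0 with the leukocyte covariate, and 0 to 3 on leaving out each library (3 without WT female 1). These settings also changed the share called of all entries tested. DESeq2 called 3.25% over both sexes, 10.3% in males and 12.6% between the sexes. The shares for limma-voom were 14.6%, 20.0% and 26.8%, and without WT male 2 edgeR called 4.45% in males. Some values changed sign, among them Tlr3 in males (0.43 with edgeR), Zbp1 over both sexes (0.39) and Zbp1 for genotype by sex (−0.34). With the leukocyte covariate these were Ifih1 −0.0068 and Eif2ak2 −0.026 over both sexes; Adar −0.0048, Eif2ak2 −0.051 and Tlr3 −0.11 in males; Ifih1 −0.16, Dhx58 −0.0069 and Eif2ak2 −0.011 in females; and Adar 0.0081, Eif2ak2 0.040 and Tlr3 0.22 for genotype by sex. With limma-voom they were Zbp1 −0.0045 over both sexes, Mavs 0.038 between the sexes, and Adar 0.0062, Zbp1 0.19, Eif2ak2 0.050 and Tlr3 0.23 for genotype by sex. In females Rigi was −0.0055 with RLE size factors, −0.017 with genes alone and −0.013 with the female samples alone, and Ifih1 was −0.0035 with genes alone. On leaving out each library, females ran from −0.064 to 0.056 for Rigi, −0.072 to 0.060 for Ifih1, −0.13 to 0.0076 for Mavs and −0.077 to 0.35 for Eif2ak2. Genotype by sex ran from −0.10 to 0.013 for Adar, −0.23 to 0.16 for Eif2ak2 and −0.40 to 0.46 for Tlr3, and males against females from −0.12 to 0.0054 for Mavs. The cause of these changes was not tested. Whether replicate numbers pair KO with WT libraries is not settled by correlating their deviations from the group mean. Within a sex, same-numbered KO and WT libraries had correlations of −0.145 to 0.0731, and differently numbered ones of −0.238 to 0.192. The groups are too small for this check to decide. With only 2 WT females, their deviations mirror each other, so the female values come in pairs of opposite sign. With replicate number as a block, Tlr3 turned to 0.027 for genotype by sex and Dhx58 between the sexes was 0.58 (edgeR adjusted p = 0.0734), and no other call on the 8 genes changed. The block called 0 entries over both sexes, in males and in females, so the calls of Cgas over both sexes (adjusted p = 0.0739) and of Unc93b1 in males (adjusted p = 0.131) were lost as well. The Cgas call was also lost with the leukocyte covariate (adjusted p = 0.142), which called 0 entries over both sexes. Plain library sizes moved the mean CPM of each of the 8 genes in either genotype by less than 1 SD. Zbp1, with 58 to 185 counts per library, is the gene most limited by depth.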
